A study of Mus musculus with 2 samples.

Results

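The cells described here were sorted microglia that carried transcripts of dividing cells. A cell was taken when its raw counts of *Mki67*, *Top2a*, *Ube2c*, *Birc5*, *Prc1*, *Cenpf*, *Ccnb2* and *Pbk* summed to 4 or more and at least 3 of these 8 genes were detected. This rule selected 355 of 42766 cells, 142 of 18374 in the VEH library and 213 of 24392 in the LEM library. Because the cells were chosen on these measured counts, and any other gene of the same cells can move with that choice, every comparison with the remaining cells is a description without a test. The comparison cells were the 17822 VEH and 23599 LEM cells in which none of the 8 genes was counted, called no-count cells. The 410 VEH and 580 LEM cells in between were left out of that comparison. The cells had been proposed as mitotic G2/M microglia, and the data bore this name out only in part. At least 6 of 8 microglial marker genes were detected in every selected cell of both libraries. However, when cells of at least 2000 counts were thinned to 2000, 48 of 353 (13.6%) held no count of 12 genes of late mitosis. Such zeros are in part counts lost by thinning, since 8 of 142 VEH and 7 of 211 LEM cells then held none of the selecting genes. Of the 353 cells 184 (52.1%) held 10 or more counts of genes of DNA replication. The selected cells are therefore called 8-gene cells, after their rule.

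The microglia came from PSAPP mice, which carry the APPswe/PS1.delta.E9 transgenes and form amyloid plaques in the brain. All mice of both groups carried these transgenes, so the control group is a plaque model as well. From 9 to 10 months of age, 5 mice received vehicle (VEH) and 5 received lemborexant (LEM, 30 mg/kg/day), a dual orexin receptor antagonist given against insomnia, by gavage for 30 days. Cells of the cortex and hippocampus of one hemisphere were sorted as living CD45lo CD11b+ cells, and the 5 mice of a group, of both sexes, were pooled into 1 library. No treatment has a second library, so no difference between VEH and LEM has a test. Intervals in the text are 95% intervals that cover counting error only. Most cells of each library could be assigned to female or male by *Xist* and Y-linked transcripts, which gives 4 pools. The 2 sexes of a library hold different mice of the same treatment. Cells with transcripts of both sexes (981 in VEH and 1764 in LEM) or of neither (2682 and 2996) are in no pool. They do count in the values of a whole library.

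A cell that enters the division cycle copies its DNA in S phase and, after a gap, condenses and separates its chromosomes in mitosis. Microglia, the resident macrophages of the brain, maintain their number by local division under signals of the CSF1 receptor, and they gather and divide around amyloid plaques. Cyclin B with the kinase Cdk1 drives entry into mitosis, and the anaphase-promoting complex ends it by marking cyclin B and securin for degradation. Genes of mitosis are held silent in resting cells by the DREAM complex, which binds an element called CHR, and are activated in part through CCAAT boxes bound by NF-Y. Genes of S phase are governed more by E2F sites.

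The libraries were of like depth per cell, with medians of 5971 counts in VEH and 6034 in LEM. Their totals were 116229678 and 160752298 counts. Cell barcodes were replaced in the deposited table by running numbers, so barcodes shared between the libraries could not be counted. Counts of both sexes' transcripts, which no single cell should hold, occurred in 981 VEH and 1764 LEM cells, and 50 VEH and 150 LEM droplets held choroid plexus transcripts. Of the latter 200 droplets 1 was an 8-gene cell.

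The promoters of the selecting genes are shown first, because of the 7 with a RefSeq entry all held CHR letters and 6 held CCAAT within 250 bases before the start. Sequences are the 150 bases before the RefSeq start on the mouse build GRCm38.p6, 5′ to 3′ on the strand of the gene, with CCAAT or its reverse ATTGG and the CHR letters TTTGAA or TTTAAA or their reverse TTCAAA in capitals. *Ccnb2* encodes cyclin B2, *Top2a* the topoisomerase that untangles DNA before separation, *Ube2c* an enzyme that works with the anaphase-promoting complex, and *Cenpf* a kinetochore protein.
Ccnb2, chr9:70421555-70421704, minus strand: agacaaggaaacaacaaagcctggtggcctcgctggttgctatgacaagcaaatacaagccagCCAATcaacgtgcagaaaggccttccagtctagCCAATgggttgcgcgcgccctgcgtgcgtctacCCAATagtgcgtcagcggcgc
Top2a, chr11:99024190-99024339, minus strand: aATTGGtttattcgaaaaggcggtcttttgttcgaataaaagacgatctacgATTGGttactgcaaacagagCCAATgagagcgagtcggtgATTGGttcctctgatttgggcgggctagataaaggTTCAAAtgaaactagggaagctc
Ube2c, chr2:164769779-164769928, plus strand: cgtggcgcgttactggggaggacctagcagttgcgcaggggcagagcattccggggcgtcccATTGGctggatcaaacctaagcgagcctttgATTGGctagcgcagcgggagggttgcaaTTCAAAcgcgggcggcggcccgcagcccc
Cenpf, chr1:189688087-189688236, minus strand: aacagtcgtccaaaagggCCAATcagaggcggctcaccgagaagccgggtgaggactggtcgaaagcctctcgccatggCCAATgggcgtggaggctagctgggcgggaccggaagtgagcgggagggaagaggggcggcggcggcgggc
The 3 CCAAT copies of *Ccnb2* lay 33 bases apart from one another, and its CHR letters lay 167 bases before the start, outside the printed stretch. *Top2a* and *Ube2c* each held 6 CCAAT matches in the 250 bases before the start. Those of *Ube2c* at 186 and 183 bases lie on opposite strands and overlap, so they are not separate copies.

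*Mki67* encodes the Ki-67 protein that coats mitotic chromosomes, *Prc1* a protein that bundles microtubules of the central spindle, and *Birc5* survivin, of the chromosomal passenger complex. *Birc5* is shown as the contrast, since it had no CCAAT copy in 250 bases and its only CHR letters lay 220 bases before the start. *Prc1* has another RefSeq start without CHR letters in 250 bases, and the start with them is shown.
Mki67, chr7:135716380-135716529, minus strand: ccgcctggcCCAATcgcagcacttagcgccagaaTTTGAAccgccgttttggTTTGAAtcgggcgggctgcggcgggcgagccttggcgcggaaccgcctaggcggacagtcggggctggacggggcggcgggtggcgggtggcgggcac
Prc1, chr7:80294326-80294475, plus strand: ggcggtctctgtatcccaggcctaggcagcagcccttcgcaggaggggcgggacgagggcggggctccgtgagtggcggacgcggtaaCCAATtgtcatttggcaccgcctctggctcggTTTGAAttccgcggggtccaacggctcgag
Birc5, chr11:117849087-117849236, plus strand: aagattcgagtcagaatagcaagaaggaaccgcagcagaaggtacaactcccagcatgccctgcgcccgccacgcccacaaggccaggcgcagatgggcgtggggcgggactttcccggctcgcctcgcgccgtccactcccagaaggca
The following 3 central regulators of mitosis were not used to choose the cells and are shown as examples that hold both kinds of letters, which most mitotic kinases and cyclins do not: the kinase *Cdk1*, cyclin B1 (*Ccnb1*) and *Cdc20*, which activates the anaphase-promoting complex.
Cdk1, chr10:69352913-69353062, minus strand: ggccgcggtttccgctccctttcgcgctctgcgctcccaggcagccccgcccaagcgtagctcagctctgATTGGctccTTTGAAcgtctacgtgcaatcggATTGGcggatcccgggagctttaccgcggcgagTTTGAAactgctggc
Ccnb1, chr13:100786487-100786636, minus strand: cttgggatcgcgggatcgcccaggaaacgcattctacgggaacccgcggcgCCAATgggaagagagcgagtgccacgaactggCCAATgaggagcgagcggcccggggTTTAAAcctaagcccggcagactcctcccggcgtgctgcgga
Cdc20, chr4:118437344-118437493, minus strand: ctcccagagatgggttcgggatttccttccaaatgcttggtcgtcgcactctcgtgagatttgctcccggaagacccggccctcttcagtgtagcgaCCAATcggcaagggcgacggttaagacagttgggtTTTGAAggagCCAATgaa
*Cdkn1a*, which encodes the CDK inhibitor p21, was high in the 8-gene cells but has none of these letters before either of its RefSeq starts, and the downstream start is shown.
Cdkn1a, chr17:29093619-29093768, plus strand: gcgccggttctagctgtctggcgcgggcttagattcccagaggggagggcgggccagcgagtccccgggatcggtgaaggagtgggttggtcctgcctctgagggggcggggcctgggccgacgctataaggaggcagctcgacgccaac

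Promoters were found for 7 of the 8 selecting genes. Within 250 bases before the start, CCAAT on either strand was present in 6 of the 7 (85.7%) against 37.5% of all 27025 genes with a RefSeq promoter, and 71.4% against 11.5% held 2 or more copies. A gene with several starts was counted when any of them held the letters. TTTGAA was present in 5 of 7 (71.4%) against 18.3% of all genes, and TTTGAA or TTTAAA in 7 of 7 against 28.1%. The E2F letters GGCGGGAA, TTTCCCGC and TTTGGCGC were found in 0 of 7, in 14 of 57 S phase genes (24.6%) and in 3.10% of all genes. Of 19 matched mitotic kinases and cyclins 16 held CCAAT (84.2%), as did 71.1% of the spindle and cytokinesis genes, 61.4% of the S phase genes, 50% of the homeostatic microglial genes and 30.4% of the ribosomal protein genes. CHR letters were present in 5 of the 19 mitotic kinases and cyclins (26.3%), under the 28.1% of all genes, and TTTGAA in 15.8%. A match of letters is not evidence of binding in these cells.

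The 8 selecting genes were not counted at an even rate in the 8-gene cells. Values are in CPM, the counts of a gene summed over the cells and scaled to a fixed total. *Mki67* on chromosome 7 stood at 958 CPM in VEH and 778 CPM in LEM and was detected in 95.8% and 91.5% of the cells. *Top2a* was at 814 and 820 CPM and *Ube2c* at 500 and 559 CPM. *Ube2c* was counted in fewer cells than *Birc5*, in 74.6% and 74.2% against 88.7% and 91.5%, although *Birc5* had the lower sum, 374 CPM in VEH and 401 CPM in LEM. *Prc1* was at 438 and 453 CPM, *Cenpf* at 407 and 433 CPM, *Ccnb2* at 313 and 326 CPM, and the mitotic kinase *Pbk* at 343 and 319 CPM. Between the 4 pools *Mki67* ranged from 806 CPM in LEM females and 840 CPM in LEM males to 936 CPM in VEH males and 1051 CPM in VEH females. These values are of a gene that chose the cells and are given as a description only. The pools of *Ccnb2* were close together, at 307 and 313 CPM in VEH females and males and 325 and 335 CPM in LEM females and males. LEM over VEH, the log2 ratio was −0.30 (−0.40 to −0.20) for *Mki67* and 0.16 for *Ube2c*, and it lay between −0.104 and 0.101 for the other 6 genes.

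**Figure D1:**
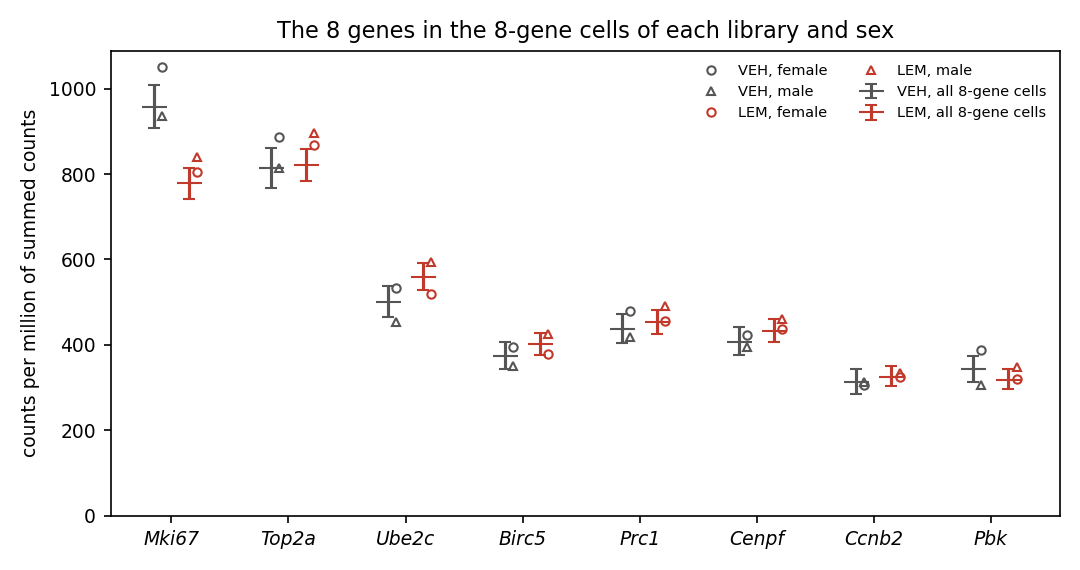
Level (CPM of summed counts) of each of the 8 selecting genes in the 8-gene cells, with dashes and 95% counting intervals for all cells of VEH and LEM and open circles and triangles for their female and male cells. *Mki67* and *Top2a* were the most counted. The cells were chosen on these 8 genes, so the plot is a description of the chosen cells (for *Mki67*, 936 and 1051 CPM in the VEH pools and 806 and 840 CPM in the LEM pools).

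Most cells lay far above the limit of the rule. The summed count of the 8 genes had a median of 35.5 in VEH and 34 in LEM and reached 137 and 185, and 105 of 142 VEH and 143 of 213 LEM cells held 20 counts or more. All 8 genes were detected in 73 VEH and 106 LEM cells and exactly 3 genes in 8 and 16. Just inside the limit, at a sum of 4 or 5, were 8 VEH and 6 LEM cells, whose summed counts of the other mitotic genes had medians of 7 and 4.5. Just outside it, 10 VEH and 21 LEM cells with a sum of 3 had medians of 1 and 2. A further 11 VEH and 10 LEM cells reached a sum of 4 without 3 detected genes, with medians of 2 and 0.5.

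The 8-gene cells were deeper than the rest, with medians of 9858.5 counts and 3779 genes per cell in VEH and 10160 counts and 3926 genes in LEM, against 5929 counts and 2547 genes and 5990 counts and 2590 genes in no-count cells. A greater RNA content of dividing cells and 2 cells in a droplet would both appear so, and their parts were not tested. The highest-scoring doublet candidates made up 6.34% of the VEH and 10.3% of the LEM 8-gene cells against 9.80% of the no-count cells in both libraries. Transcripts of both sexes were counted in 4.93% and 9.39% of the 8-gene cells against 5.21% and 7.10% of no-count cells. The median mitochondrial share was 0.687% and 0.800% against 0.619% and 0.647%.

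As to identity, all 8 microglial markers were detected in 140 of 142 VEH and 203 of 213 LEM 8-gene cells. Few 8-gene cells held several genes of another cell type. At least 3 genes of a list were detected for border-associated macrophages in 1 VEH cell, for neurons in 1 VEH cell, for astrocytes in 2 VEH cells, for oligodendrocytes in 2 LEM cells and for choroid plexus in 1 LEM cell. No 8-gene cell reached 3 genes of monocytes, neutrophils, T and NK cells, B cells, endothelial cells or neural progenitors. In VEH the summed level was 34.1 CPM for border-associated macrophages against 8.47 CPM in no-count cells, 19.8 against 4.72 CPM for astrocytes and 6.82 against 0.870 CPM for neurons. In LEM these sums were 3.49 against 11.3 CPM, 6.98 against 5.25 CPM and 1.31 against 0.773 CPM. The part of such RNA in the results was not tested. The summed level of the monocyte list was 54.6 CPM in VEH and 77.6 CPM in LEM against 10.2 and 11.6 CPM in no-count cells, and most of it was *Plac8*, with 4 of 8 genes at 0 in VEH and 3 of 8 in LEM. In the list of neural progenitors 7 of 8 genes were at 0, and its sum was *Nes*, which encodes the filament protein nestin, at 24.6 and 17.4 CPM against 2.22 and 2.77 CPM.

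Treatment was first compared by the share of 8-gene cells. In VEH 0.773% of cells (0.651 to 0.910) met the rule and in LEM 0.873% (0.760 to 0.998), a log2 ratio of 0.18 (−0.14 to 0.49). The sexes had opposite signs, a difference that was not tested. In female cells 51 of 5686 (0.897%, 0.669 to 1.18) met the rule in VEH and 56 of 8409 (0.666%, 0.503 to 0.864) in LEM, a log2 ratio of −0.43 (−1.0 to 0.15). In male cells the counts were 76 of 9025 (0.842%, 0.664 to 1.05) and 119 of 11223 (1.06%, 0.879 to 1.27), a log2 ratio of 0.33 (−0.09 to 0.77). All 3 intervals include 0, so at this number of cells no difference in the share of 8-gene cells was detectable. Outside the pools, cells with neither sex's transcripts met the rule in 8 of 2682 (0.298%) in VEH and 18 of 2996 (0.601%) in LEM. Cells with both did so in 7 of 981 (0.714%) and 20 of 1764 (1.13%). The intervals of these ratios, −0.26 to 2.42 and −0.63 to 2.15, also include 0. Female cells were 40.2% of the 8-gene cells of known sex in VEH and 32% in LEM, against 38.4% and 42.9% of no-count cells. A change in the share of dividing cells in tissue and a change in the cells that survive the sort cannot be told apart here.

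**Figure D2:**
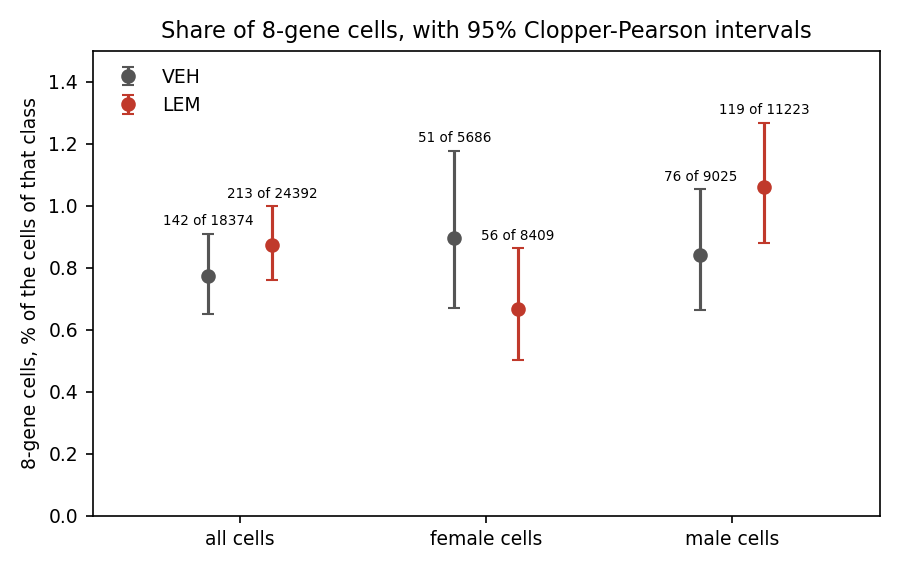
Share of 8-gene cells (percent of cells) in the VEH and LEM libraries and in their female and male cells, with 95% exact binomial intervals for counting error. The share was lower in LEM than in VEH females (0.666% against 0.897%) and higher in LEM than in VEH males (1.06% against 0.842%), and the intervals of VEH and LEM overlapped in each case.

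Within the 8-gene cells the transcripts ran from DNA replication to late mitosis. At 2000 counts per cell, S phase genes reached 10 or more counts in 57.0% of the VEH library (81 of 142) and 48.8% of the LEM library (103 of 211). The late mitosis genes, among them *Plk1*, *Cdc20*, *Ccnb1* and *Aurka*, reached 5 or more counts in 55 VEH (38.7%) and 86 LEM cells (40.8%). Both limits were passed by 22 VEH and 27 LEM cells, and 16 VEH and 18 LEM cells held at most 2 counts of either kind. Cells with many S phase counts and at most 2 late ones numbered 38 in VEH and 53 in LEM. Cells with 5 or more late counts and under 10 S phase counts numbered 33 and 59. These limits divide a continuous range, and 32 VEH and 43 LEM cells lay next to one of them. Over the 353 cells the Spearman correlation of the S phase and late sums was −0.28, −0.26 in VEH and −0.29 in LEM. The cells of a library share its depth and mice, and the fixed total per cell ties the sums to each other. The 8-gene sum, the value that chose the cells, had a correlation of 0.72 with the sum of mitotic kinases and cyclins, 0.48 with that of replication-dependent histones and −0.03 with that of S phase genes.

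**Figure D3:**
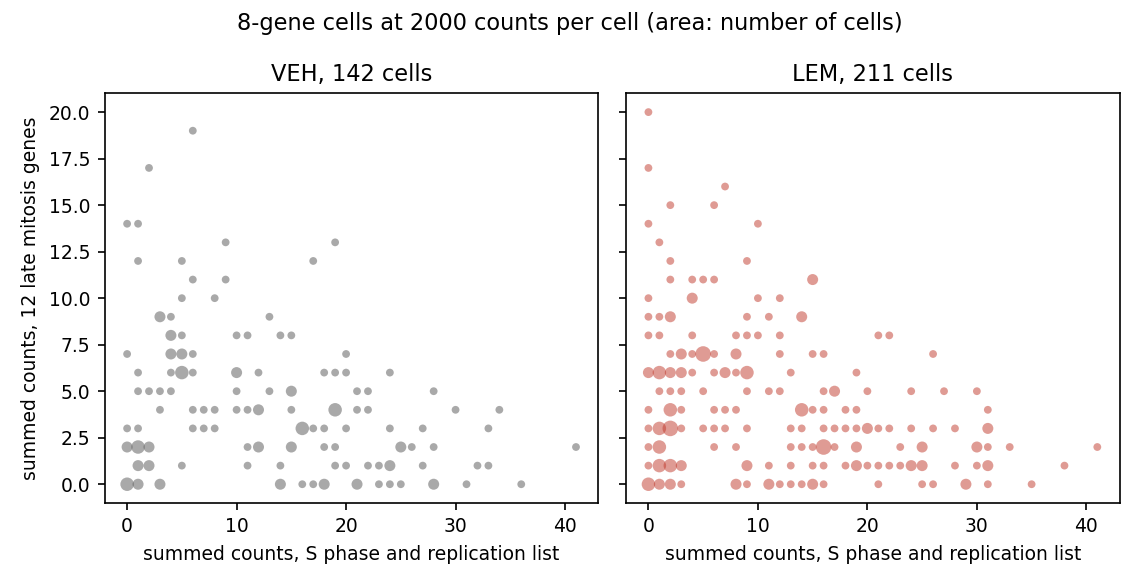
Summed counts of S phase genes (horizontal) and of 12 late mitosis genes (vertical) in the 8-gene cells of VEH and LEM after thinning to 2000 counts, with the area of a point for the number of cells. Of the 184 cells with 10 or more S phase counts 49 also held 5 or more late ones, and 22 VEH and 26 LEM cells lay at 0 late counts.

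Compared with no-count cells, the 8-gene cells carried a broad programme of division, as the rule requires, and the description concerns its reach. Of 8923 genes detected in enough cells, 14.3% were at least 2-fold higher in the 8-gene cells and 3.97% at least 2-fold lower in VEH, and 12.7% and 2.48% in LEM. In both libraries 1083 genes were past 2-fold higher (12.1%) and 160 past 2-fold lower (1.79%), and 48.7% of all measured genes were above 0 and 35.9% below 0 in both. A gene counted as measured when enough cells of either group held it, and 767 of the 1083 reached that limit only through the 8-gene cells in at least 1 library, which selects for higher genes. Of the 261 measured cell-cycle genes 249 were past 2-fold higher, and 202 of these 249 were measured in that way, so this count was largely set by the filter. The median log2 ratio over all genes was 0.09 in VEH and 0.08 in LEM. Under scaling by the median of ratios all values shift so that it is −0.05 and −0.02. All 25 measured mitotic kinases and cyclins were past 2-fold higher, with a median log2 ratio of 7.78 in VEH and 8.29 in LEM. Of these 25, 23 were measured only through the 8-gene cells. *Bub1*, a kinase of the spindle checkpoint, was at 120 and 103 CPM against 0.0448 and 0.0455 CPM. The kinase *Nek2*, which separates centrosomes, was at 71.7 and 79.8 CPM against 0.0269 and 0.026 CPM. The smallest ratios were those of *Fzr1*, which activates the anaphase-promoting complex after mitosis (1.52 and 1.64), and of securin, *Pttg1* (1.85 and 1.01). In VEH that of *Pttg1* was −0.33 in females and 3.03 in males.

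All 44 spindle and cytokinesis genes were past 2-fold higher (medians 6.97 and 7.21), led by the spindle proteins *Hmmr*, at 250 and 244 CPM, and *Kif18b*, at 121 and 113 CPM, both under 0.1 CPM in no-count cells. All 35 kinetochore and centromere genes were above 0 in both libraries and 34 were past 2-fold higher (6.44 and 5.99). The one short of 2-fold was *Zwint*, of the outer kinetochore, whose log2 ratio was 0.70 (0.40 to 0.98) and 0.47 (0.22 to 0.72). Of the S phase genes 70 of 71 were above 0 and 67 past 2-fold higher, with medians of 3.34 and 3.07. Only through the 8-gene cells were 38 of 44 spindle, 32 of 35 kinetochore and 58 of 71 S phase genes measured. The counts past 2-fold in these lists were thus largely set by the filter. Ribonucleotide reductase subunit *Rrm2* stood at 217 and 200 CPM against 0.0448 and 0.0715 CPM. All 27 genes of chromatin in dividing cells were above 0 and 24 past 2-fold higher (2.73 and 2.65), among them *H2afx*, at 736 and 748 CPM against 15.3 and 14.5 CPM. The microtubule regulator *Stmn1* (stathmin) was at 860 and 658 CPM against 12.8 and 11.2 CPM.

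All 51 replication-dependent histone genes, 36 of them measured only through the 8-gene cells, were above 0 in both libraries. Of the 51, 47 were past 2-fold higher (3.91 and 3.46). These mRNAs mostly lack a poly(A) tail, so capture by oligo-dT counts an unknown part of them, and near-identical copies can share reads, so single histone genes are uncertain. *Hist1h3b* was at 177 and 125 CPM against 0.0448 and 0.065 CPM, and *Hist1h2af* at 190 and 84.2 CPM against 0.0269 and 0.052 CPM.

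Among the inhibitors of the cycle the 8-gene cells were high for several that restrain CDKs. *Cdkn1a* stood at 785 CPM in VEH and 733 CPM in LEM, and at 728, 875, 765 and 805 CPM in VEH females, VEH males, LEM females and LEM males. In no-count cells it was at 20.9 and 24.7 CPM. It was counted in 90.1% and 87.3% of 8-gene cells and in 7.92% and 9.49% of no-count cells, and the log2 ratio was 5.23 (5.13 to 5.34) and 4.89 (4.81 to 4.97). Its level followed the 8-gene sum. From no count through sums of 1 to 3, 4 to 9, 10 to 19 and 20 and over, it was 20.9, 64.7, 318, 686 and 861 CPM in VEH and 24.7, 62.8, 264, 621 and 828 CPM in LEM. The lowest of the 4 pools of *Cdkn1a* lay far above the no-count cells of both libraries.

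*Cdkn2c*, which encodes the Cdk4 and Cdk6 inhibitor p18, was at 283 and 272 CPM against 4.64 and 5.18 CPM. *Cdkn2d*, which encodes the related p19 inhibitor, was at 185 and 155 CPM against 8.84 and 9.36 CPM. *Cdkn1b*, which encodes p27, differed little in VEH, with a log2 ratio of 0.09 (−0.23 to 0.40) and 0.62 (0.39 to 0.84) in LEM. *Cdkn1c*, which encodes p57, was at 0 in VEH and at 2.62 CPM, 6 counts, in LEM, against 12.7 and 13.6 CPM. The D cyclins, which carry growth signals to Cdk4 and Cdk6, did not go one way. *Ccnd3* was at 100 and 116 CPM against 252 and 264 CPM and *Ccnd1* at 92.8 and 85.5 CPM against 131 and 160 CPM. *Ccnd2* was rare, with 8 counts in VEH (5.46 CPM, 2.36 to 10.8) against 0.870 CPM in no-count cells and 4 counts in LEM (1.74 CPM, 0.475 to 4.47) against 1.92 CPM. E-type cyclins, which open S phase, stood higher, *Ccne1* with log2 ratios of 9.03 and 8.28 and *Ccne2* with 5.63 and 5.40. Over the whole list of G1 cyclins and CDK inhibitors 9 of 25 genes were past 2-fold higher and 1 past 2-fold lower in both libraries, beside 12.1% and 1.79% of all genes. Of the 9, 7 were measured only through the 8-gene cells, and 2 of the 18 genes measured in no-count cells were past 2-fold higher.

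Most receptor and lineage genes of microglia were present at lower levels, with 14 of 19 below 0 in both libraries, beside 35.9% of all genes. *Csf1r*, the receptor for microglial survival and division, was at 2527 and 2756 CPM against 3261 and 3262 CPM. *Cebpa*, which encodes a myeloid transcription factor that slows division, was at 104 and 124 CPM against 292 and 280 CPM. *Irf8*, a transcription factor that microglia need to develop, was in contrast at 585 and 590 CPM against 479 and 498 CPM. In the CSF1 receptor and lineage list 3 of 19 genes were past 2-fold lower and none higher in both libraries, beside 1.79% and 12.1% of all genes, with medians of −0.34 and −0.25.

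Homeostatic genes had medians of −0.50 and −0.43, with 30 of 35 below 0 in both libraries and 2 past 2-fold lower, beside 35.9% and 1.79% of all genes. *P2ry12*, the ATP and ADP receptor of surveying microglia, was at 2194 and 2293 CPM against 4326 and 4142 CPM. *P2ry12* was lower in each further bin of the 8-gene sum, from 3932 CPM at 1 to 3 counts to 2898, 2314 and 2055 CPM in VEH, and from 3681 to 2957, 2662 and 2140 CPM in LEM. *Tmem119* and *Sall1*, a microglial surface protein and a transcription factor, had smaller ratios, −0.35 and −0.34 for *Tmem119* and −0.23 in both libraries for *Sall1*. The 2 past 2-fold were *Ltc4s*, leukotriene C4 synthase (−1.38 and −1.51), and *Ecscr* (−1.51 and −1.17). The values are shares of each cell's counts, so less RNA of a gene per cell and more RNA of other genes cannot be told apart.

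**Figure D4:**
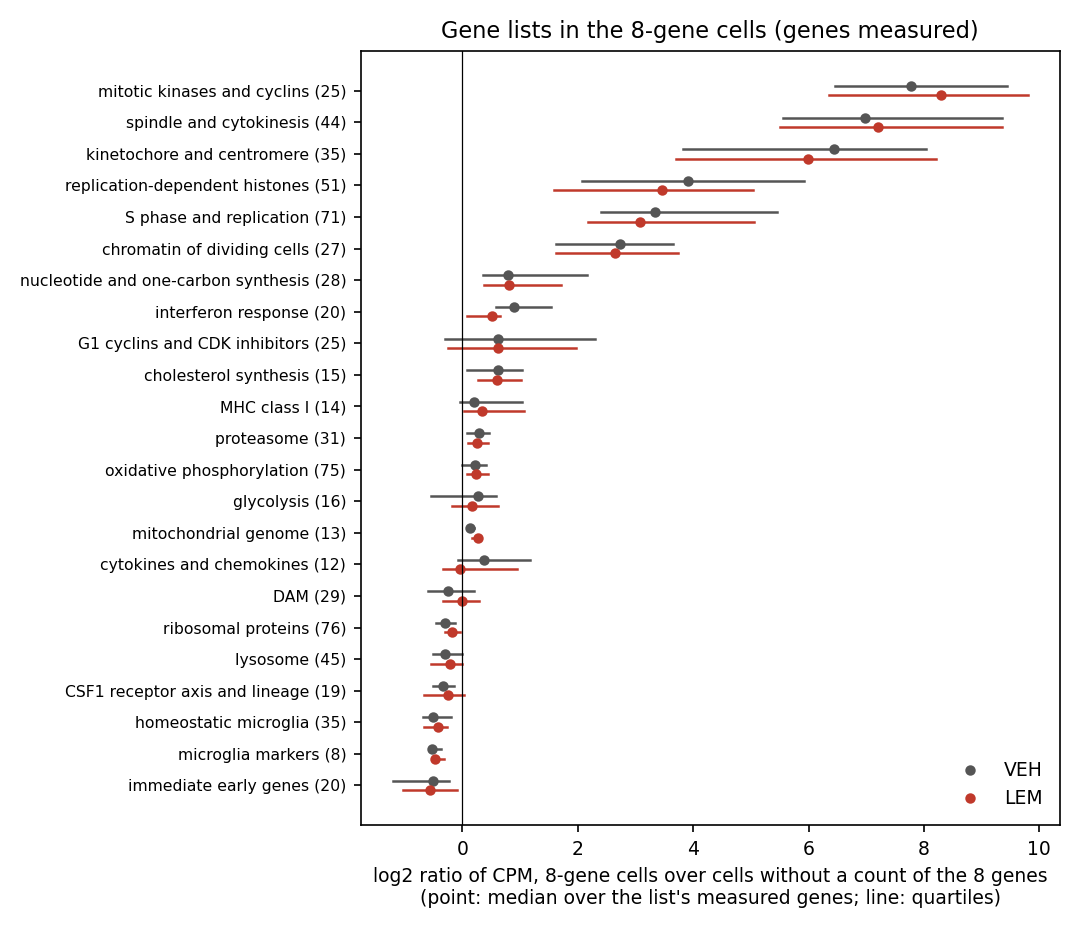
Log2 ratio of CPM, 8-gene cells over no-count cells, for each gene list in VEH and LEM, with a point for the median and a line for the quartiles over its measured genes (their number in brackets). The lists of division lie far to the right (median 7.78 and 8.29 for mitotic kinases), whereas homeostatic genes and the CSF1 receptor list centre just below 0 (−0.50 and −0.43, and −0.34 and −0.25).

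Lists of activation differed from one another. Genes of disease-associated microglia (DAM), which microglia near plaques express, had medians of −0.24 and −0.01, with 2 of 29 past 2-fold higher in both libraries, a share below the 12.1% of all genes. Both were measured only through the 8-gene cells. These were *Spp1* (osteopontin), at 35.5 and 91.1 CPM against 10.3 and 17.8 CPM, and lipoprotein lipase *Lpl*, at 56.7 and 81.1 CPM against 24.2 CPM in both libraries. *Cd63* was at 221 and 331 CPM against 429 and 561 CPM. In the interferon list 16 of 20 genes were above 0 and 1 below 0 in both libraries, beside 48.7% and 35.9% of all genes. Its medians were 0.89 and 0.52. In VEH 1 cell held 53 of the 125 *Isg15* counts and 28 of the 57 *Ifit2* counts, and without it the VEH median was 0.71. Only 2 of the 20 were past 2-fold higher in both, near the 12.1% of all genes. The largest ratio was that of *Ifi27l2a*, at 390 and 782 CPM against 58.9 and 87.0 CPM. *Tnf* was at 173 and 118 CPM against 33.5 and 32.5 CPM, *Ccl12* at 1074 and 665 CPM against 262 and 263 CPM, and *Ccl2* at 200 and 110 CPM against 60.6 and 57.6 CPM. Of the *Ccl2* counts 25.9% in VEH and 20.6% in LEM came from 1 cell. Of the cytokine list 2 of 12 genes were past 2-fold higher in both libraries, near the share of all genes.

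MHC class I genes had medians of 0.21 and 0.34, with 4 of 14 past 2-fold higher against 12.1% of all genes, and 2 of the 4 were measured only through the 8-gene cells. Among the 4 was *H2-Q4*, at 147 and 157 CPM against 43.7 and 48.4 CPM, and its family shares near-identical sequence. MHC class II genes had medians of −0.49 and −0.15 and none past 2-fold in both. Of 20 immediate early genes 16 were below 0 and 2 above 0 in both libraries, beside 35.9% and 48.7% of all genes. Past 2-fold, 6 were lower and 1 higher, beside 1.79% and 12.1% of all genes. *Ier2* was at 198 and 180 CPM against 520 and 487 CPM and *Klf4* at 34.1 and 17.0 CPM against 84.2 and 57.6 CPM, whereas the chaperone *Hsp90aa1* was at 473 and 425 CPM against 167 and 157 CPM.

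In metabolism, 12 of 28 genes of nucleotide and one-carbon synthesis were past 2-fold higher (0.78 and 0.81), against 12.1% of all genes. Of these 12, 10 were measured only through the 8-gene cells and 4 are also on the S phase list. Of the 16 measured in no-count cells 2 were past 2-fold higher. *Tk1*, thymidine kinase, was at 288 and 232 CPM against 1.148 and 0.974 CPM. *Tyms*, thymidylate synthase, was at 238 and 191 CPM against 13.4 and 12 CPM. Cholesterol synthesis had 12 of 15 above 0 in both libraries, beside 48.7% of all genes. It had 3 past 2-fold higher (0.61 and 0.59), a count near the 12.1% of all genes. All 3 were measured only through the 8-gene cells, among them *Fdft1*, squalene synthase, at 41.0 and 38.4 CPM against 13.1 and 12.9 CPM. Glycolytic genes had medians of 0.27 and 0.16 and 2 of 16 past 2-fold lower, beside 1.79% of all genes. These were hexokinase 2 (*Hk2*), at 53.9 and 53.2 CPM against 111 and 109 CPM, and aldolase A (*Aldoa*), at 75.1 and 115 CPM against 328 and 311 CPM. Oxidative phosphorylation (0.22 and 0.23, 75 genes) and the proteasome (0.28 and 0.25, 31 genes) had no gene past 2-fold in both. Ribosomal protein genes had medians of −0.31 and −0.18 and the lysosome −0.30 and −0.22. Below 0 in both libraries were 64 of 76 and 34 of 45 genes, beside 35.9% of all genes.

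Outside the lists of division, the 12 genes with the largest positive ratios included several with known roles in chromosomes or centrioles. *Pimreg* was at 185 CPM in VEH and 184 CPM in LEM, with 1 count in the no-count cells of each library. *Esco2*, which ties sister chromatids, was at 160 and 153 CPM. *Neil3*, a DNA glycosylase, was at 142 and 119 CPM. *Mxd3* was at 114 and 95.9 CPM and *Stil*, of the duplicating centriole, at 106 and 75.9 CPM. The long noncoding RNA *Lockd*, downstream of *Cdkn1b*, was at 211 and 225 CPM against 0.179 and 0.260 CPM. It overlaps *Gm44238* on the other strand. *Ankle1*, *Fam83d*, *Sapcd2*, *Gm38037*, *BC030867* and *Gtse1* completed the 12 highest, at 13.5 to 82 CPM. *Gm38037* overlaps *Nek2* on the other strand, so its counts are uncertain.

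The 12 lowest were led by *Tcp11l2*, at 0.683 and 2.18 CPM, 1 and 5 counts, against 25.6 and 23.9 CPM, with log2 ratios of −5.23 (−10.53 to −2.75) and −3.46 (−5.08 to −2.23). *Socs3*, an inhibitor of cytokine signals, was at 65.5 and 75.9 CPM against 276 and 271 CPM. It was the most abundant of the 12 in no-count cells. *Kdm5b*, a histone H3 lysine demethylase, was at 3.41 and 13.1 CPM against 43.0 and 42.3 CPM. *Slc37a2*, *Phf1*, *Rapsn*, *Acy1*, *Tha1*, *Ypel2*, *Tmem42*, *Tmem204* and *Gm40841* had log2 ratios between −2.74 and −1.67.

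*Gm42047* was the predicted gene with the highest level, at 1506 CPM in VEH and 1006 CPM in LEM against 16.5 and 15.7 CPM. It was named after its values were seen. It overlaps *Gm20388* on the same strand over 7932 bases, so reads may be divided between them. In LEM its level differed between the sexes, 1863 CPM in females and 619 CPM in males, and the VEH pools were at 1923 CPM and 1279 CPM.

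The ends of the range were then set against each other, the cells with 5 or more late and under 10 S phase counts (late-high) over those with 10 or more S phase and at most 2 late counts (S-high). Their depths were close in VEH (medians 8682 and 10095.5 counts) and in LEM (11213 and 9749). Both groups were cut from counts of these same cells, so S phase and late mitosis genes differ by construction. Of 4153 genes, 8.72% were past 2-fold higher in late-high cells in VEH and 8.76% in S-high cells. In LEM the values were 4.82% and 5.66%. In both libraries 139 genes were past 2-fold higher in late-high and 156 in S-high cells. Of the selecting genes *Ube2c*, *Cenpf*, *Ccnb2* and *Prc1* were past 2-fold in both. *Ube2c* was at 185 and 145 CPM in S-high and at 1180 and 1147 CPM in late-high cells. *Pbk* had log2 ratios of 0.53 and 0.13.

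*Cdkn1a* was high at both ends. It was at 832 and 674 CPM in S-high and at 683 and 630 CPM in late-high cells, log2 ratios of −0.28 (−0.54 to −0.03) and −0.10 (−0.30 to 0.11). The VEH interval lies just below 0, but it leaves out the spread between cells and between mice. *Cdkn2c* was at 208 and 202 CPM and at 421 and 375 CPM, and *Cdkn2d* at 118 and 99.1 CPM and at 256 and 207 CPM, both about 2-fold higher in late-high cells. *Mxd4*, a MYC antagonist, stood at 12.8 and 14.2 CPM in S-high cells and at 66.4 and 70.9 CPM in late-high cells, against 53.2 and 48.6 CPM in no-count cells. *Cdk4* was at 190 and 230 CPM against 75.9 and 84.2 CPM and thus higher in S-high cells. *Ccnd1* was at 154 and 117 CPM in S-high and 53.8 and 64.9 CPM in late-high cells. *Ccnd3* had no common direction, with −1.23 in VEH and 0.16 in LEM.

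Some genes outside the cycle were also uneven along the range. *Ifi27l2a*, an interferon-induced gene, was at 20.5 and 99.1 CPM in S-high and 671 and 1180 CPM in late-high cells, against 58.9 and 87.0 CPM in no-count cells. In VEH its S-high level was thus under that of no-count cells. *Plac8* was counted 1 and 3 times in S-high and 26 and 88 times in late-high cells, with log2 ratios of 5.0 (2.40 to 10.36) and 4.61 (3.02 to 6.92). *Arhgap18* was at 15.4 and 21.2 CPM against 231 and 140 CPM and *Acsl5*, a fatty acid activating enzyme, at 53.9 and 46.0 CPM against 244 and 210 CPM. *Pif1*, a DNA helicase, was at 5.13 and 3.54 CPM against 139 and 100 CPM. *Irf8* was at 344 and 389 CPM in S-high and 743 and 765 CPM in late-high cells, with no-count cells between them. *Csf1r* was at 2144 and 2590 CPM in S-high and 2797 and 2986 CPM in late-high cells. *P2ry12* was at 2680 and 2860 CPM in S-high and 1835 and 2000 CPM in late-high cells.

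Outside the lists of division, the gene most uneven towards S-high cells was *Tcf19*, at 239 and 244 CPM against 25.3 and 17.7 CPM. *Hat1*, a histone acetyltransferase and also among the 12 most uneven, was at 231 and 157 CPM against 9.49 and 29.5 CPM. Of 14 genes of nucleotide supply 9 were past 2-fold higher in S-high cells, but 4 of these 14 are on the S phase list by which the cells were chosen. Of the 10 that are not, 5 were past 2-fold higher, such as deoxycytidine kinase *Dck*, at 198 and 180 CPM against 34.8 and 42.8 CPM, and *Paics* of purine synthesis, at 131 and 140 CPM against 19 and 31 CPM. The histone list had medians of 0.81 and 1.05, towards late-high cells, with 9 of 38 past 2-fold there. Over all 4153 genes 156 were past 2-fold towards S-high and 139 towards late-high cells in both libraries.

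**Figure D5:**
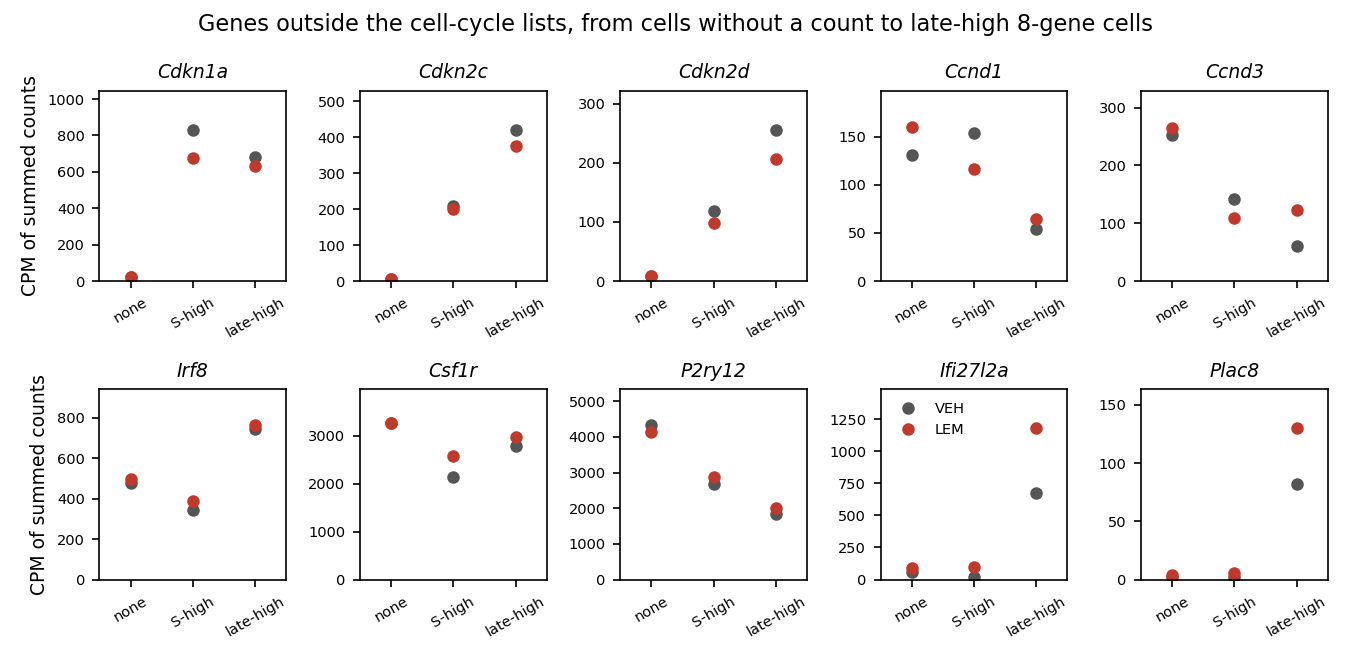
Level (CPM of summed counts, linear axes from 0) of 10 genes in no-count (none), S-high and late-high cells, with 1 point for VEH and 1 for LEM. *Cdkn1a* was high at both ends of the range (630 to 832 CPM), whereas *Ifi27l2a* reached 671 and 1180 CPM in late-high cells and stayed at 20.5 to 99.1 CPM in the others.

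Part of the no-count cells carried replication genes without any of the 8 genes. They numbered 240 of 17822 in VEH and 481 of 23599 in LEM and held 6 or more counts of 14 replication genes, 4 or more detected. The 4 of these 14 genes given next were lower in them than in S-high cells. *Mcm5*, a subunit of the replicative helicase, was at 98.2 and 99.3 CPM in them, at 203 and 191 CPM in S-high cells and at 6.35 and 7.91 CPM in all no-count cells. *Pcna*, the sliding clamp of DNA replication, was at 157 and 124 CPM against 511 and 405 CPM in S-high cells. *Tyms* was at 40.1 and 34.3 CPM against 375 and 327 CPM, and *Rrm2* at 0.427 and 0.413 CPM against 313 and 327 CPM. *Cdkn1a* was at 23.5 and 22.5 CPM in them, against 832 and 674 CPM in S-high 8-gene cells. *Cdkn2c* was at 6.40 and 4.13 CPM and *Stmn1* at 78.5 and 48.7 CPM. *P2ry12* was at 4152 and 3901 CPM, nearer to the level of all no-count cells than to that of 8-gene cells. Their median depths were 9027 and 8800 counts, and 10.0% and 12.1% of them held transcripts of both sexes. Both groups were chosen on counts, and by its rule this one excludes any cell with *Mki67* or *Top2a*.

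Next, the 8-gene cells of LEM were set against those of VEH. Of 9491 genes 92 (0.969%) were past 2-fold higher in LEM and 82 (0.864%) past 2-fold lower. Over the same genes in no-count cells, which hold far more counts, the shares were 0.232% and 0.2%. The median log2 ratio was −0.01 in 8-gene cells and 0.01 in no-count cells. The selecting genes and mitotic kinases did not move together, with a median of −0.02 for the kinases, which turns positive when scaled by the median of ratios. None of the kinases, kinetochore, spindle or S phase genes was past 2-fold in either direction. *Cdc20* was at 230 CPM in VEH and 298 CPM in LEM, at 0.37 (0.18 to 0.57).

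S phase genes leaned towards VEH, with 54 of 72 below 0 and a median of −0.17, beside a median of −0.01 over all genes. The median of the S phase list was −0.30 in females and 0.07 in males. The histones leaned further, with 46 of 53 below 0 and a median of −0.36, which was −0.65 in females and −0.05 in males. Within the list 3 of 53 histone genes were past 2-fold lower and 1 higher, beside 0.864% and 0.969% of all genes. The lower ones included *Hist1h2af*, at 190 CPM in VEH and 84.2 CPM in LEM. The higher one was *Hist3h2ba*, at 6.82 and 22.7 CPM. Of the 52 *Hist3h2ba* counts in LEM 13 came from 1 cell. In no-count cells the medians of the S phase and histone lists were 0.14 and 0.20, of the other sign.

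DAM genes leaned towards LEM, with 25 of 30 above 0 and a median of 0.26 (0.32 in females and 0.17 in males). The median of the list was 0.10 in no-count cells, and that of all genes in 8-gene cells was −0.01. Past 2-fold, 3 of the 30 were higher and 1 lower, beside 0.969% and 0.864% of all genes. *Spp1* was at 12.5 and 47.2 CPM in VEH females and males and at 57.9 and 89.7 CPM in LEM females and males, a log2 ratio of 1.36 (0.92 to 1.83), beside 0.79 (0.69 to 0.89) in no-count cells. Both LEM pools of *Spp1* lay above both VEH pools, and 32.5% of its 209 counts in LEM came from 3 cells. *Cd63* was at 221 CPM in VEH and 331 CPM in LEM, 0.58 (0.39 to 0.77), beside 0.39 in no-count cells. *Ifi27l2a* was at 390 and 782 CPM, 1.01 (0.87 to 1.14), with pools of 266 and 470 CPM in VEH females and males and 1024 and 601 CPM in LEM females and males, against 0.56 in no-count cells.

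The interferon list as a whole had a median of −0.33, beside 0.30, of the other sign, in no-count cells. Past 2-fold lower were 6 of 23, beside 0.864% of all genes. However, the median was 0.51 in females and −0.90 in males. These values rested in part on 1 VEH male cell, which held 329 of 342 VEH counts of *Cxcl10*, 53 of 125 of *Isg15* and 28 of 57 of *Ifit2*. Without it, an alternative chosen after seeing the data, the median of the interferon list was −0.04. Of the 23 genes 0 were then past 2-fold lower and 2 past 2-fold higher, and *Cxcl10* went from −3.67 to 1.03. The cytokine list had a median of −0.55, which was −0.07 in females and −0.75 in males, beside −0.04 in no-count cells. Past 2-fold lower were 2 of 13, beside 0.864% of all genes. Without the same cell the median was −0.44, and 0 genes were past 2-fold lower and 1 past 2-fold higher. *Ccl12* was at 1074 and 665 CPM, −0.69 (−0.79 to −0.59), with 256 of its 1573 VEH counts in that cell, and was at −0.45 without it. *Tnf* had opposite signs, 0.50 in females and −1.21 in males. The ribosomal protein genes were above 0 in 67 of 76. Their median was 0.19, beside 0.08 in no-count cells and −0.01 over all genes of the 8-gene cells. Homeostatic genes had a median of 0.05. *Csf1r* was at 0.13 (0.07 to 0.18), beside 0.00 in no-count cells.

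Among the genes with the largest positive ratios *Adcy8* was as uneven in no-count cells. *Adcy8*, an adenylate cyclase, was at 5.46 and 22.2 CPM against 9.82 and 40.9 CPM. For others the ratio in no-count cells was smaller. *Kdm5b* was at 3.41 and 13.1 CPM, 1.94 (0.56 to 3.66) against −0.03. *Cox6a2*, a muscle-type subunit of cytochrome oxidase, was at 11.6 and 42.7 CPM, 1.88 (1.13 to 2.72) against 0.27. *Csf2rb2*, a receptor subunit for interleukin-3, was at 9.55 and 32.3 CPM, 1.76 (0.92 to 2.70) against 0.55. *Cad*, which begins pyrimidine synthesis, was at 4.78 and 15.7 CPM, 1.72 (0.53 to 3.13) against 0.05. *AC113595.1*, *Alkbh2*, *Speg*, *Rundc1* and *Mthfsd* had ratios of 1.59 to 1.84, from 5, 6, 9, 6 and 7 counts in VEH. *Cad* had 7 counts in VEH. *Kdm5b* had 5, the same counts that gave its low VEH ratio to no-count cells. Genes with the largest ratios in either direction were named only when the interval excluded 0, so such intervals are no further support. The glycolytic gene *Gapdh*, which has many processed copies, was at 489 and 1299 CPM, beside 300.2 and 717 CPM in no-count cells.

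Among the 12 lowest, *Cfap77* was the most abundant, at 1022 CPM in VEH and 290 CPM in LEM, −1.82 (−1.95 to −1.68), and the no-count cells gave −1.84, at 461 and 129 CPM. *Cfap77* belongs to cilia, and in both libraries it was about 2-fold higher in 8-gene cells (1.15 and 1.17). *Pianp* and *Nrarp* also had like ratios in no-count cells, −1.89 against −2.06 and −1.80 against −2.07. *Eps8*, an actin regulator, was at 31.4 and 7.85 CPM, −2.0 (−2.87 to −1.19) against −0.61. *Wdr19*, of transport within cilia, was at 22.5 and 6.11 CPM, −1.88 (−2.90 to −0.94) against 0.05, and in VEH females it was at 48.2 CPM while VEH males were at 6.56 CPM. *St8sia1*, a sialyltransferase, was at 24.6 and 7.41 CPM, −1.73 (−2.65 to −0.86) against −0.07. *Mns1* was at 29.3 and 9.16 CPM, −1.68 against 0.98. *Gm3002*, *Gm37876*, *Zfp981*, *Tnfrsf12a* and *Dclk2* had ratios between −1.94 and −1.45. *Mns1*, *Gm3002*, *Eps8* and *Cfap77* overlap other genes on their strand and are uncertain.

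Finally the 8-gene cells were sought in the reactive states of microglia, with cells of at least 2000 counts thinned to 2000. The 1305 VEH and 1215 LEM cells below 2000 counts, with 2 LEM 8-gene cells among them, were left out. A cell was put in the DAM state when 2 or more of 7 genes such as *Cst7*, *Lpl* and *Spp1* were counted. *Lpl* and *Spp1* are the 2 DAM genes that were past 2-fold higher in 8-gene cells of both libraries. *Cst7* was at 107 and 207 CPM against 109 and 88.2 CPM in no-count cells. The DAM list as a whole was not raised, with medians of −0.24 and −0.01, so the state ratios concern these 7 genes only. In VEH 8 of 421 DAM cells (1.90%) and 134 of 16648 other cells (0.805%) were 8-gene cells, a log2 ratio of 1.24 (−0.00 to 2.26). In LEM they were 19 of 560 (3.39%) and 192 of 22617 (0.849%), a ratio of 2.0 (1.24 to 2.68). The LEM ratio was 2.22 in females and 1.63 in males. These rest on 6 female and 7 male cells of the 19, and the others belong to neither pool. In VEH the ratio was 1.63 in males, from 5 of 194 DAM cells, while in females 1 of 139 DAM cells gave −0.39 (−5.72 to 2.16). Among cells with 3 or more of 10 interferon genes 7 of 275 in VEH (2.55%) and 6 of 458 in LEM (1.31%) were 8-gene cells, ratios of 1.66 (0.32 to 2.75) and 0.54 (−0.93 to 1.68). Among MHC class II cells they were 4 of 559 (0.716%) and 11 of 624 (1.76%), ratios of −0.22 (−2.12 to 1.16) and 0.99 (−0.03 to 1.86). Without thinning, where the 8-gene cells were deeper than the others, the ratios in VEH and LEM were 1.85 (1.16 to 2.48) and 2.36 (1.88 to 2.81) for DAM, 1.55 (0.67 to 2.33) and 1.31 (0.68 to 1.89) for interferon and 0.69 (−0.16 to 1.44) and 1.43 (0.87 to 1.95) for MHC class II cells. These states are ranges of counts and not cell types, and 9.00% of the LEM and 5.63% of the VEH 8-gene cells were in the DAM range.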

How the data were processed

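The deposited table holds UMI counts of genes in cells, which the authors made from 10x 5′ libraries with Cell Ranger 8.0.0 on mm10 (per the submitters' processing notes). These counts were whole numbers without normalization. SoupX is named in the study's methods, and whether its correction entered the deposited counts cannot be told. The table had already been limited to 501 or more genes and at most 19999 counts per cell. Columns were assigned to VEH and LEM by the treatment in their names, and 0 columns were left unmatched.

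Counts were summed over cells and divided by their total (CPM). Log2 ratios have exact binomial intervals, shares have Clopper-Pearson intervals (scipy 1.17.1, 95%, counting error only), and a sum of 0 was set to 3 counts in a ratio. A gene was measured when it was detected in at least 10% of either group of cells, and for LEM over VEH when it also had 30 counts. With 1 library per treatment no test was made and no p-value is given. Lists across depths were counted after thinning each cell of at least 2000 counts to 2000 (seed 1), and cells below that were left out of these counts. Sums were tested on simulated data.

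Doublets were scored with Scrublet (scanpy 1.11.5). Its automatic threshold marked 0 VEH and 3113 LEM cells, so the top 10% of scores in each library were taken as candidates and kept, except in an alternative. Median depths were 5971 and 6034 counts per cell. The 142 and 213 8-gene cells had medians of 9858.5 and 10160 counts, so a gene at 1 CPM has about 1 or 2 counts over all 8-gene cells of a library.

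The selecting genes and the lists were chosen with earlier results of these data known. The late mitosis list was added after the values were seen. Named are the selecting genes, the 3 highest and 2 lowest members of each list, and outside the lists of division the 12 highest and 12 lowest that moved one way in all 4 pools. For LEM over VEH the 12 highest and lowest are named by the same rule. Other genes named here, such as *Stmn1*, *Gm42047*, *Cdkn2d*, *Ccne1*, *Mxd4* and the genes that differ between S-high and late-high cells, were chosen after their values were seen. 4 listed genes were not used here because they matched no name in the table. The sources used here do not state whether counting used strand, and genes that overlap others are uncertain. Promoters came from a RefSeq table on GRCm38.p6. Alternatives changed the rule, depth, doublets, sexes, scaling, detection and comparison cells. Some genes that the naming rule would give are not reported here.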

Additional observations from a re-analysis of the deposited data

Results flagged for a closer look

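Female and male cells of the same libraries gave opposite signs in several comparisons of LEM with VEH. The log2 ratio of the share of 8-gene cells was −0.43 in female and 0.33 in male cells, and both intervals include 0. Of 185 named genes, 71 had opposite signs in the sexes and 5 had intervals that excluded 0 on opposite sides, beside 48.1% and 0.759% of all 9491 genes compared. The named genes include some chosen for moving one way in all 4 pools or in both sexes, so these counts are no measure of how often the sexes differ. Within the 8-gene cells, *Tnf*, a cytokine of activated microglia, was at a log2 ratio of 0.50 in females and −1.21 in males. *Pttg1*, which encodes securin, was at 0.80 and −1.06. *Slfn2*, an interferon-induced gene, was at 0.96 and −0.58. Of its 93 VEH counts 14 came from 1 male cell. *C1qb*, a subunit of complement C1q, was at 0.22 and −0.14. *Tmem119*, a surface marker of microglia, was at −0.17 and 0.15. None of these differences between the sexes was tested, since each sex and treatment is a single pool of mice, and the mice of a pool cannot be told apart.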

How the results depend on the processing

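The cells were chosen by counts, 1 library stands for each treatment, and intervals leave out the spread between cells and between mice. No paired analysis was possible because each treatment has 1 library, so leaving out a replicate was not possible either. The number of cells limits the share of 8-gene cells, whose log2 ratio ran from −0.43 in female cells only to 0.33 in male cells only over all alternatives. Of 66 main values under an alternative 59 stayed inside the interval of the main value or, for counts of genes, near the main count. This does not require the same sign, since some of those intervals include 0. The MHC class II state ratio in VEH, −0.22, was 0.69 without thinning. The interferon state ratio in LEM, 0.54, was −0.30 in female cells. The DAM state ratio in VEH was −0.39 in female cells, from 1 of 139 DAM cells. Without thinning it was 1.82 (0.60 to 2.88) in female cells. The number of genes lower in LEM went from 82 to 126 in female cells and to 154 in the late mitosis range, an alternative chosen after seeing the data. At a detection minimum of 20% the genes lower in 8-gene cells were 105, those higher in LEM 34 and those lower 26, since fewer genes were eligible.

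Across alternatives the interferon list median in LEM over VEH turned to 0.51 in female cells and was −0.0423 without the VEH cell of most *Cxcl10* counts, and smaller list medians also changed sign, such as S phase genes to 0.07 and MHC class I to −0.13 in male cells. In female cells LEM over VEH turned to −0.0525 for *Ccnb1*, −3.53 for *H2-Aa*, 0.59 for *H2-DMb1*, 0.80 for *Pttg1*, 0.50 for *Tnf* and −0.0378 for *Ube2c*. In male cells it turned to 0.0637 for *Asf1b*, −0.0831 for *Cd52*, −0.0028 for *Ctsl*, 0.24 for *Hist1h3g*, 0.0165 for *Hmgb2*, 0.0230 for *Hsp90aa1*, 0.0135 for *Tk1* and 0.10 for *Tubb5*. For 8-gene over no-count cells, female cells gave −0.0506 for *Hist2h2aa1* and −0.74 for *Zbp1* in LEM and −0.33 for *Pttg1* in VEH. The cause was not tested. Scaling by the median of ratios reversed none of these called values.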
